A study of Mus musculus with 12 samples.

Results

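Metallothioneins and the proteins that sense or carry zinc were examined on 12 Affymetrix arrays of spleen RNA from C57BL/6 mice. The 8 genes were chosen by symbol: Mt1 and Mt2, the metal sensor Mtf1, the exporter Slc30a1 and the importers Slc39a1, Slc39a8, Slc39a10 and Slc39a14. All 8 were found among the 19938 genes that have a probe set with a single annotated symbol. Where several probe sets named a gene, that of the highest mean was read, and Slc39a1 was the member with a further probe set.

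The labels place the arrays in 3 groups of 4 biological replicates. Mice of the first group are described as septic and deficient for Toll-like receptors (TLRs, sensors of microbial molecules), with Trifxmyd in the sample titles. They underwent colon ascendens stent peritonitis (CASP), in which gut bacteria leak through a stent into the abdomen, though their titles do not name it. The second group had the same operation on a wildtype background, with CASP in its titles. The third was wildtype and untreated, with 0 h in the titles of 3 of its samples. Alleles, age, sex and the time from operation to sampling are not given in the sources used here, and there was no untreated TLR-deficient group, so genotype and sepsis are not crossed.

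Metallothioneins are small cysteine-rich proteins that bind zinc and copper. The transcription factor Mtf1 senses free zinc and switches on Mt1, Mt2 and Slc30a1 through metal response elements in their promoters, while glucocorticoids and interleukin-6, acting through STAT3, raise the metallothioneins during infection and stress. Transporters of the Slc30 family move zinc out of the cytosol, and those of the Slc39 family move it in. Slc39a14 is known as an interleukin-6-responsive importer of hepatocytes, Slc39a8 as an importer that NF-kappaB induces in myeloid cells, and Slc39a10 as an importer that B cells need.

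Mt2 and Mt1 lie next to each other on chromosome 8 (assembly GRCm38.p6), Mt2 at 94172618 to 94173567 and Mt1 at 94178883 to 94180327. They are 5.32 kb apart, with 0 annotated genes between them. RefSeq sequence on the plus strand is shown because Mt1 and Mt2 had the same order of levels over runs of arrays, given below. That of Slc30a1 is shown because it carries the same motif without following them. Capitals mark the metal response element, searched on both strands as TGCACNC or TGCGCNC. For Mt2 the window starts from the start of the gene record, and the 250 bases before it are shown, at chr8:94172368-94172617. For Mt1 and Slc30a1 the window table uses a later start, 94179089 and 191906781, which lies 206 and 84 bases inside the gene record, so only 30 bases around the match before that start are shown, at chr8:94179054-94179083 and chr1:191906726-191906755.
Mt2: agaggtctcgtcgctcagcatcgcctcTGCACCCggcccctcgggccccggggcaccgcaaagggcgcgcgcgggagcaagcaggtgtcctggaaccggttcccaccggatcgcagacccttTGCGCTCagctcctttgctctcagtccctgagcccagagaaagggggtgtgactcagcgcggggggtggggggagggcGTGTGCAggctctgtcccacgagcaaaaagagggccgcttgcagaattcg
Mt1: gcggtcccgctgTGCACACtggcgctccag
Slc30a1: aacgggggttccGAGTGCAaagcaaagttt

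In the full RefSeq windows, which run 50 bases past the start each uses, the motif occurred 3 times for Mt1, 4 times for Mt2 and 2 times for Slc30a1. In Mt1 the matches began 23 bases before the start used, inside the gene record (TGCACAC), and at bases 3 (TGCACTC) and 21 (TGCGCTC) after it. Of 32544 windows of 300 bases, 25.9% held at least 1 match, 7.17% at least 2, 1.99% at least 3 and 0.522% at least 4. Windows were found for 7 of the 8 members. A match also stood in 1 of the 2 windows of Slc39a8, and none in those of Mtf1, Slc39a1 and Slc39a10. The STAT element TTCNNNGAA, its own reverse complement, occurred in 1 of the 2 windows of Slc39a10 and in 8.33% of all windows. The core AGAACA bound by the glucocorticoid receptor, searched on both strands, occurred for Mtf1 and in 18.9% of all windows. These matches describe letters in short windows and carry no measurement of binding.

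The arrays did not fall together as labelled, which bears on every group value. Running numbers in the titles go from M5 to M8 for the arrays labelled septic TLR-deficient, M9 to M12 for septic wildtype and M13 to M16 for untreated wildtype. Only 5 of the 12 arrays correlated best, across genes, with an array of their own label. M10, labelled septic wildtype replicate 2, stood apart from all others, with a standard deviation of its log2 values of 1.52 against 2.11 to 2.24 and a correlation with them of at most 0.809, while the other 11 correlated at 0.956 or more. Xist, the transcript of female cells, was at most 4.33 on M12 to M15 and at least 8.94 on the rest. The values are therefore given by label and also by runs of title numbers, M16 with M5 to M7, M8 to M11, and M12 to M15. The runs were recognised in these data, so they are described without a test. Of the 6 measured of 7 markers of B cells, the main lymphocytes of spleen, 5 had a log2 value of 7.13 or more on every array, and Fcer2a ranged from 4.99 on M5 to 9.88. The 7 hepatocyte markers averaged between 3.76 and 4.83.

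Mt1 and Mt2 stood at 3 separate levels on the arrays, and these followed the runs of title numbers and not the labels. Mt1 had log2 values of 11.37, 11.48, 11.35 and 8.82 on M5 to M8, the arrays labelled septic TLR-deficient. On M9 to M12, labelled septic wildtype, it stood at 8.13, 7.93, 8.39 and 9.95. On M13 to M16, labelled untreated wildtype, it stood at 9.81, 9.94, 9.67 and 11.78. The last array of each label differed from the other 3 of its label, low for septic TLR-deficient and high for the other labels, and the labelled groups overlapped.

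Mt2 had the wider range. Its values were 12.25, 11.97, 11.92 and 9.23 on M5 to M8, then 7.60, 8.70, 8.59 and 10.34 on M9 to M12. The 4 untreated arrays M13 to M16 had 10.11, 9.72, 9.52 and 12.37. The same 3 arrays stood apart from their labels as for Mt1, M8 below, M12 above and M16 above, and again the labelled groups overlapped.

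**Figure D1:**
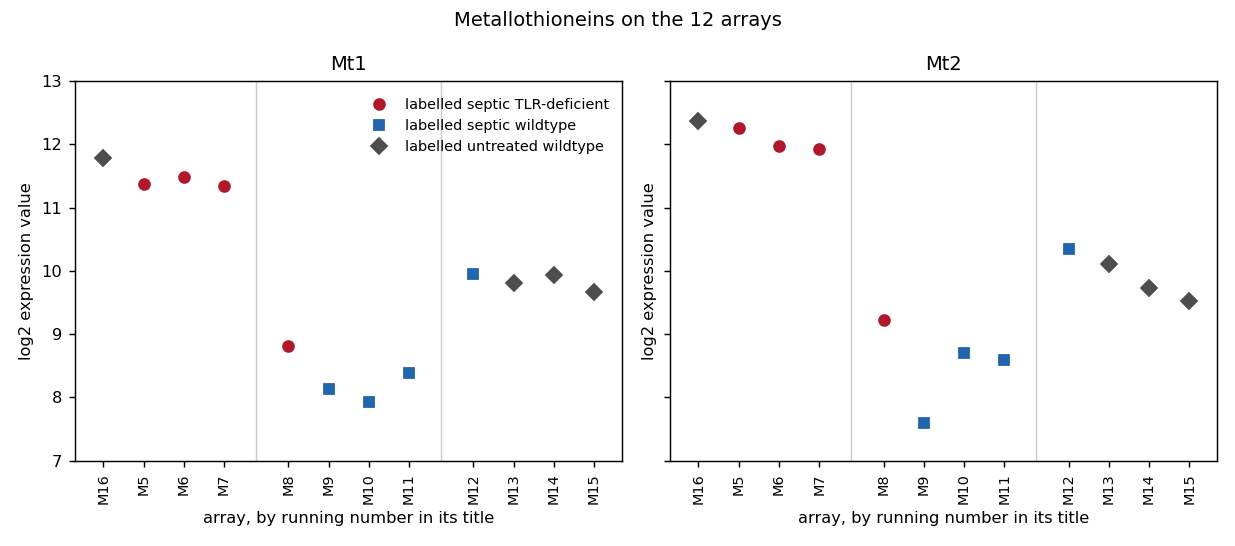
Log2 expression values of Mt1 and Mt2 on each array, ordered by runs of title numbers (grey lines separate the runs) with colour and symbol giving the label. On M16 and M5 to M7 Mt1 lies between 11.35 and 11.78 and Mt2 between 11.92 and 12.37, above all other arrays.

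By runs, Mt1 spanned 11.35 to 11.78 on M16 with M5 to M7, 9.67 to 9.95 on M12 to M15 and 7.93 to 8.82 on M8 to M11. The gap was 1.39 between the highest and the middle run and 0.85 between the middle and the lowest. Mt2 spanned 11.92 to 12.37, 9.52 to 10.34 and 7.60 to 9.23 in the same order, with gaps of 1.59 and 0.30. This order of 3 separate levels, picked after it was seen in Mt1 and Mt2, was met by both metallothioneins and by 0 of the other 6 members. Across all genes it was met by 65 of 19938 (0.326%). Over the 12 arrays Mt1 ranged over 3.85 log2 units and Mt2 over 4.77, wider than 98.9% and 99.7% of genes.

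Mtf1, the zinc sensor, varied little. It had 6.84, 6.48, 6.72 and 6.43 on the 4 arrays labelled septic TLR-deficient, 6.71, 6.66, 6.46 and 6.83 on those labelled septic wildtype, and 6.68, 6.79, 6.78 and 6.71 on the untreated arrays. Its range of 0.41 was wider than that of only 0.602% of genes, and neither the labels nor the runs separated its values. Without M10 the range was the same and wider than that of 9.24% of genes.

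Slc30a1, the exporter of the cell membrane that Mtf1 controls, did not follow the metallothioneins. It stood at 6.35, 6.54, 7.17 and 6.75 on the arrays labelled septic TLR-deficient and at 6.93, 5.78, 7.21 and 7.08 on those labelled septic wildtype. The untreated arrays had 7.21, 7.46, 7.75 and 6.78. Its highest values were on M15 and M14 of the middle run, its lowest on M10, and both the labelled groups and the runs overlapped.

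Slc39a14 was the importer that came nearest to the order of the metallothioneins. Its values were 8.15, 7.87, 6.57 and 5.68 on M5 to M8 and 5.67, 4.66, 6.02 and 6.57 on M9 to M12. On the untreated arrays M13 to M16 it had 6.72, 6.10, 6.70 and 7.92. M5, M6 and M16 were high, but M7 lay within the range of the middle run, so the upper runs overlapped. M8 to M11 lay below the middle run by 0.08 and below the highest by 0.55.

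Slc39a8 had 7.43, 6.79, 7.22 and 6.46 on the arrays labelled septic TLR-deficient. It had 5.59, 5.65, 6.41 and 6.43 on those labelled septic wildtype and 6.61, 6.82, 6.82 and 6.69 on the untreated arrays. Septic wildtype was below both other labels on every array, though by a margin of only 0.03 between M12 and M8. By runs, M16 with M5 to M7 lay above M8 to M11 by 0.23 and overlapped with M12 to M15.

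Slc39a10 varied as much between arrays but in another order. The arrays labelled septic TLR-deficient had 8.44, 7.23, 6.58 and 7.89, those labelled septic wildtype 7.69, 4.96, 7.61 and 7.42, and the untreated arrays 7.61, 7.77, 7.67 and 8.56. M16 and M5 were highest, M10 was lowest by a wide margin, and M7 lay below 10 of the other arrays. Its range of 3.60 over 12 arrays was 1.98 without M10.

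Slc39a1, a zinc importer of the cell membrane found in most cell types, had 9.12, 9.18, 9.01 and 8.52 on the arrays labelled septic TLR-deficient. It stood at 8.65, 7.28, 9.23 and 8.93 on those labelled septic wildtype and at 9.03, 9.31, 9.32 and 8.95 on the untreated arrays. M10 was the low value, and without it the range fell from 2.03 to 0.79. The further probe set of Slc39a1 lay between 5.36 on M10 and 7.89 on M14, with the lowest value on the same array.

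**Figure D2:**
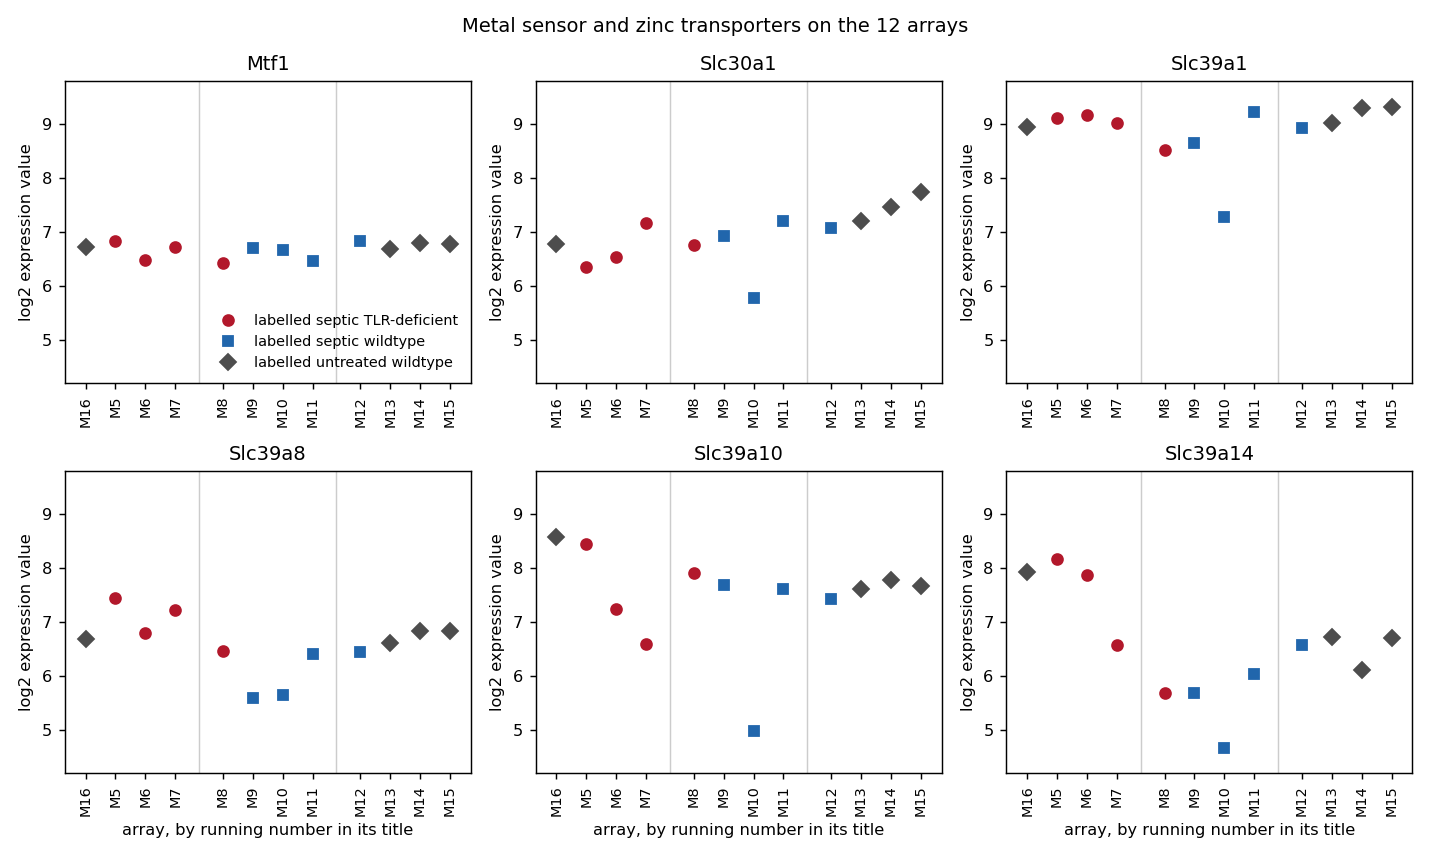
Log2 expression values of Mtf1 and the 5 zinc transporters on each array, with the array order, runs, colours and symbols used for the metallothioneins. Mtf1 stays between 6.43 and 6.84, M10 is the lowest array for Slc30a1, Slc39a1, Slc39a10 and Slc39a14, and Slc39a14 is high on M16, M5 and M6.

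By the labels, septic against untreated wildtype addresses what peritonitis changes when TLR signalling is intact. Xist, high on M9 to M11 and M16 and low on M12 to M15, divided most of these arrays as the labels do. Sex and sepsis can therefore not be fully told apart here. In the septic wildtype group all 8 members had the lower mean, with a median log2 difference of -0.85 against 0.07 over all genes (-0.46 against 0.02 without M10), and 0 of 8 passed an adjusted p of 0.05 in limma. Over all genes 0 of 19938 (0%) passed. Unadjusted p lay under 0.05 for 2 members, Mt1 and Slc39a8, and for 8.81% of genes. Without M10 this held for 1 member, a zinc importer, for 0 metallothioneins and for 5.45% of genes. The mean of Mt1 was 8.60 ± 0.92 (SD, n = 4) in septic wildtype and 10.30 ± 0.99 (SD, n = 4) in untreated wildtype. The difference was -1.70 (SE 0.65, 95% interval -3.10 to -0.29, adjusted p = 0.439 in limma).

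Mt2 differed by -1.63 (SE 0.77), or by -0.98 without the array labelled untreated replicate 4. Slc39a8 differed by -0.72 (SE 0.26), and it was the member whose labelled groups did not overlap, which held in this direction for 2.74% of genes. Slc39a14 differed by -1.13 (SE 0.56) and Slc39a10 by -0.98 (SE 0.56). Slc39a1 and Slc30a1 differed by -0.63 (SE 0.34) and -0.55 (SE 0.32). Without M10 the differences of Slc39a10, Slc39a1 and Slc30a1 were -0.33, -0.21 and -0.23. Mtf1 differed by -0.08 (SE 0.16), and its sign turned under a further quantile normalization, at 0.17. Every member had an adjusted p of 0.439 or more in limma.

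Between the septic labels, TLR-deficient and wildtype, the comparison bears on what depends on TLR signalling in sepsis, without separating it from differences between the genotypes at rest. Here TLR-deficient had the higher mean for 6 of the 8 members, with a median difference of 0.79 against -0.06 over all genes. Without M10 it was 5 of 8, with a median of 0.43. None of the 8 passed in limma, nor did any of the 19938 genes (0%). Unadjusted p lay under 0.05 for 4 members, Mt1, Mt2, Slc39a8 and Slc39a14, and for 6.65% of genes. Without M10 this held for 3 members, Mt1, Mt2 and 1 zinc importer, and for 6.2% of genes. Mt1 averaged 10.75 ± 1.29 against 8.60 ± 0.92 (SD, n = 4 each), a 4.45-fold ratio, and Mt2 11.34 ± 1.42 against 8.81 ± 1.14 (SD, n = 4 each), a 5.80-fold ratio. The interval of the log2 difference was 0.75 to 3.56 for Mt1 and 0.86 to 4.21 for Mt2, each with adjusted p = 0.590 in limma.

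Slc39a14 had a difference of 1.34 (SE 0.56, adjusted p = 0.590 in limma) and Slc39a8 of 0.96 (SE 0.26, adjusted p = 0.590 in limma). The labelled groups did not overlap for Slc39a8, as for 2.05% of genes in this direction. Slc39a10 had 0.62 (SE 0.56) and Slc39a1 0.43 (SE 0.34), but -0.04 and 0.02 without M10. Mtf1 (-0.05, SE 0.16) and Slc30a1 (-0.05, SE 0.32) lay within 1 SE of 0, and their signs turned to 0.07 and 0.07 when each array was centred on its median. The 95% interval of Slc30a1, -0.74 to 0.64, held changes of either sign.

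By the labels, septic TLR-deficient and untreated wildtype spleens differ in genotype and in sepsis together. Xist divided most of their arrays too, high on M5 to M8 and M16 and low on M13 to M15. The means were higher for 4 members and lower for 4, with a median difference of 0.04 against 0.01 over all genes, and 0 members and 0 of 19938 genes (0%) passed in limma. Unadjusted p lay under 0.05 for 0 members and 1.88% of genes. Without M10, which enters here only through the shared variances, this held for 1 member, Slc30a1, and 6.14% of genes. The difference of Mt2 was 0.91 (SE 0.77) and that of Mt1 0.46 (SE 0.65), with intervals of -0.76 to 2.58 and -0.95 to 1.86. With 1 array left out Mt2 lay between 0.61 (without M15) and 1.61 (without M8), and Mt1 between 0.21 (without M6) and 1.10 (without M8). Slc30a1 had the lowest difference, -0.60 (SE 0.32). Slc39a14 had 0.21 (SE 0.56), and this turned to -0.15, -0.06 and -0.04 without M5, M6 and M14 in turn. The 3 comparisons share their arrays and are not independent of each other.

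**Figure D3:**
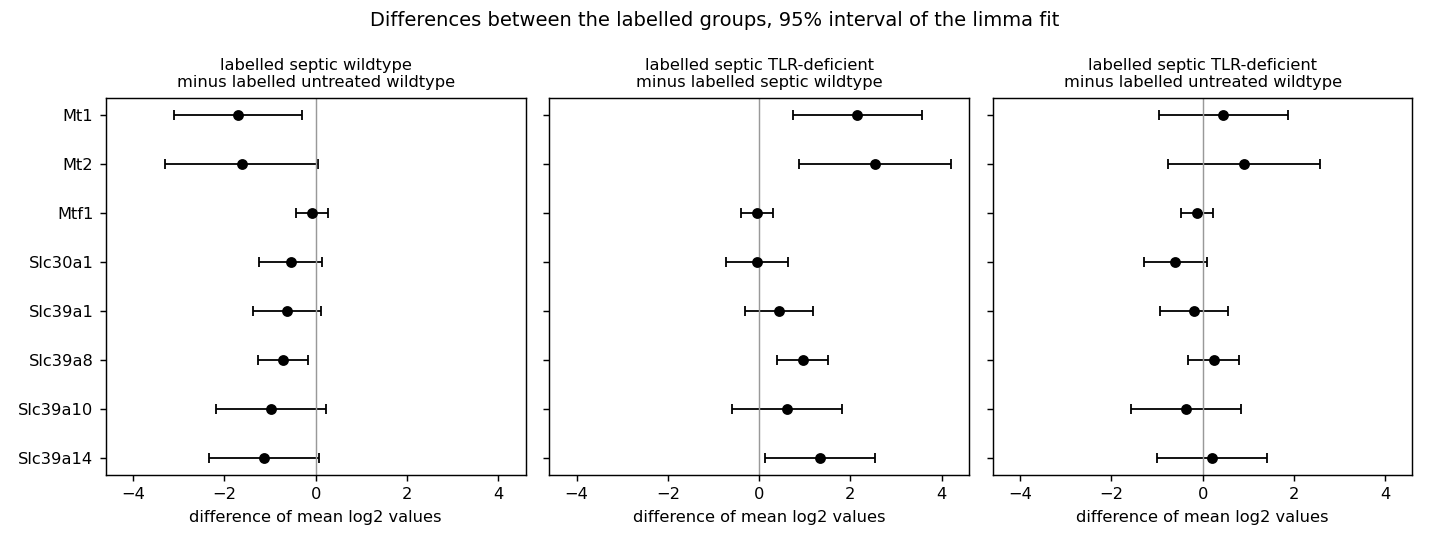
Differences of mean log2 values between the labelled groups for the 8 members (4 arrays a group), with points for the estimate and bars for the 95% interval of the limma fit over 12 arrays. Between the septic labels the intervals of Mt1, Mt2, Slc39a8 and Slc39a14 lie above 0, while no adjusted p passed.

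The last replicate of each label is the array that stood apart for the metallothioneins. With replicates 1 to 3 only, a choice made after seeing the data that removes those arrays and so favours calls, Mt1 passed in all 3 comparisons in limma. Its differences were -1.65 (adjusted p = 0.0324, range over 21 alternatives 0.0324 to 0.791) for septic against untreated wildtype and 3.25 (adjusted p = 0.000546, range 0.000546 to 0.772) for TLR-deficient against wildtype sepsis. For septic TLR-deficient against untreated wildtype it was 1.60 (adjusted p = 0.0176, range 0.0176 to 1). Mt2 passed in the latter comparisons, at 3.75 (adjusted p = 0.00146, range 0.00146 to 0.772) and 2.26 (adjusted p = 0.025, range 0.025 to 1), and not in the first, at -1.49 (adjusted p = 0.254, range 0.207 to 0.791). The other 6 members did not pass in any comparison. The counts over all genes were 9, 141 and 33. The arrays kept for each label all lie within a single run of title numbers, and the runs were recognised in these same values. The adjusted p-values of this choice therefore cannot serve as support for a difference.

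Profiles like those of the metallothioneins were sought over all genes, by the smallest root-mean-square difference of log2 values centred on each gene's mean over the 12 arrays. The 5 genes nearest to Mt1 were Socs3 (0.33), Ctla4 (0.34), Tnfaip3 (0.40), Errfi1 (0.40) and Avpr1a (0.40), where the median gene lay at 1.40. Socs3 is the STAT3-induced brake on interleukin-6 signalling, Ctla4 an inhibitory receptor of T cells, Tnfaip3 (A20) a brake on NF-kappaB, and Errfi1 a feedback inhibitor of the EGF receptor. Avpr1a is a vasopressin receptor. Mt2 came just after these 5, at 0.40. For Mt2 the nearest gene was Mt1, followed by Il10 (0.50), Ctla4 (0.57), Avpr1a (0.59), Pi15 (0.59) and Il1a (0.60), with the median gene at 1.61. Il10 is an anti-inflammatory cytokine and Il1a an alarm cytokine.

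Socs3 spanned 8.95 to 9.63 on M16 with M5 to M7, 7.59 to 8.16 on M12 to M15 and 5.35 to 6.43 on M8 to M11. Il10 spanned 7.71 to 7.98, 4.55 to 5.27 and 3.72 to 4.88 in the same order, high on the first run and overlapping between the others. Of these 8 genes 6 had the 3 separate levels of Mt1 and Mt2, which their choice by likeness favours. Without M10 Socs3 stayed nearest to Mt1 (0.31) and Il10 to Mt2 (0.47), Mt1 and Mt2 themselves not counted, but Errfi1 and Tnfaip3 came at places 8 and 9 for Mt1 and Il1a at place 6 for Mt2.

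**Figure D4:**
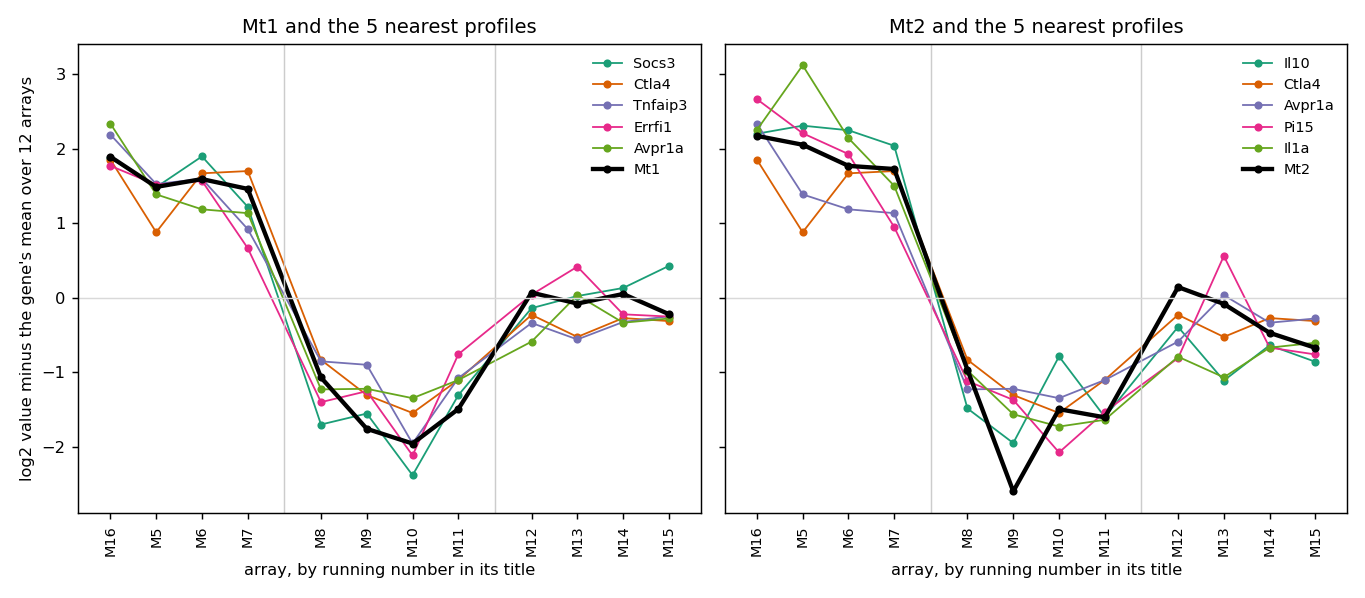
Log2 values minus each gene's mean over 12 arrays for Mt1 (left, black) and Mt2 (right, black) with the 5 genes of nearest profile, on arrays ordered by runs of title numbers. All lines are high on M16 and M5 to M7 and low on M8 to M11, and the profile of Socs3 differs from that of Mt1 by a root-mean-square of 0.33.

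None of the other genes of zinc handling met the order of 3 separate levels in full. All 21 had a measured probe set, and 0 passed in any comparison in limma. Mt3, the metallothionein of brain, lay between 6.13 and 7.22 and Mt4, that of squamous epithelium, between 4.42 and 5.84, both highest on M10. Of the 9 other Slc30 exporters 1 had an unadjusted p under 0.05 between the septic labels, where 6.65% of genes did. Means in septic TLR-deficient were higher for 5 and lower for 4, with a median difference of 0.42, or 0.03 without M10. Slc30a4, a vesicle exporter, spanned 6.89 to 7.88 on M16 with M5 to M7, 6.38 to 6.80 on M12 to M15 and 4.65 to 6.61 on M8 to M11. Its order came close to that of Mt1 and Mt2, and only M8, at 6.61, overlapped with the middle run. Slc30a5 and Slc30a7, which load zinc into the secretory pathway, ranged over 0.61 and 0.65 without M10. Of the 10 other Slc39 importers 5 had higher and 5 lower means between the septic labels, with a median difference of 0.03, or 3 higher, 7 lower and -0.16 without M10. Slc39a7, which releases zinc from the endoplasmic reticulum, ranged over 1.09 without M10, Slc39a6 over 0.79 and Slc39a9 over 1.04.

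Lists of genes tied to the known inducers of metallothioneins, receptors included, had the same directions of mean difference. The part of these inducers in the metallothionein values was not tested. All 11 measured glucocorticoid-responsive genes had lower means in septic than untreated wildtype (median -0.91) and higher means in septic TLR-deficient than septic wildtype (median 1.10). The medians over all genes were 0.07 and -0.06. In limma 0 passed, with an unadjusted p under 0.05 for 4 in each comparison, against 8.81% and 6.65% of genes. Without M10, an alternative added after the data were seen, 9 were lower (median -0.71) and 10 higher (median 0.69), and 0 had an unadjusted p under 0.05 in either comparison. Sgk1 and Nr3c1, named for this, then had differences of 0.15 and 0.02 for septic against untreated wildtype, and Sgk1 of -0.01 between the septic labels. Dusp1, a phosphatase that shuts off MAP kinases, had 10.80, 11.27, 10.79 and 7.55 on M5 to M8, then 7.70, 6.38, 8.57 and 9.57 on M9 to M12, and 9.78, 10.05, 9.36 and 11.21 on M13 to M16. It was high, middle and low on the same arrays as Mt1. Fkbp5, which tempers the glucocorticoid receptor, ranged over 4.70 and Ddit4, an inhibitor of mTOR signalling, over 4.03, but over 2.07 and 2.26 without M10. Per1, Dusp1 and Errfi1, named after their values were seen, had the 3 separate levels.

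The 12 genes of interleukin-6 and STAT3 likewise had lower means in septic than untreated wildtype (median -1.38, 8 with an unadjusted p under 0.05) and higher means in septic TLR-deficient than septic wildtype (median 0.91, 6 with an unadjusted p under 0.05). These counts stand against 8.81% and 6.65% of genes, and 0 of 12 passed in limma. Without M10, 11 of 12 were lower (median -1.06, 6 with an unadjusted p under 0.05, against 5.45% of genes) and 10 of 12 higher (median 0.73, 3 with an unadjusted p under 0.05, against 6.2% of genes). Il6ra, the interleukin-6 receptor, named for this, then had differences of 0.11 and -0.42, and Il6st of -0.10 between the septic labels. Il6 itself stood at 9.06, 8.47, 6.34 and 3.05 on M5 to M8, at 2.90, 4.27, 3.35 and 3.75 on M9 to M12, and at 3.69, 4.31, 4.21 and 9.22 on M13 to M16. It was high on M16 and M5 to M7 and overlapped between the other runs, where Mt1 and Mt2 did not. Socs3 had a difference of 2.07 (SE 0.72, adjusted p = 0.590 in limma) between the septic labels. Il6st, the signalling chain of the interleukin-6 receptor, ranged over 0.92 without M10. Socs3 and Cebpd, named after their values were seen, had the 3 separate levels.

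S100a8 and S100a9, the zinc-binding calgranulins of neutrophils, took another order. S100a8 had 8.34, 8.91, 9.38 and 7.53 on M5 to M8, 7.38, 7.23, 7.92 and 10.31 on M9 to M12, and 8.78, 9.68, 8.88 and 6.64 on M13 to M16. The lowest array for S100a8 was M16, on which Mt1 and Mt2 were highest, and S100a9 was lowest there too, at 6.57.

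**Figure D5:**
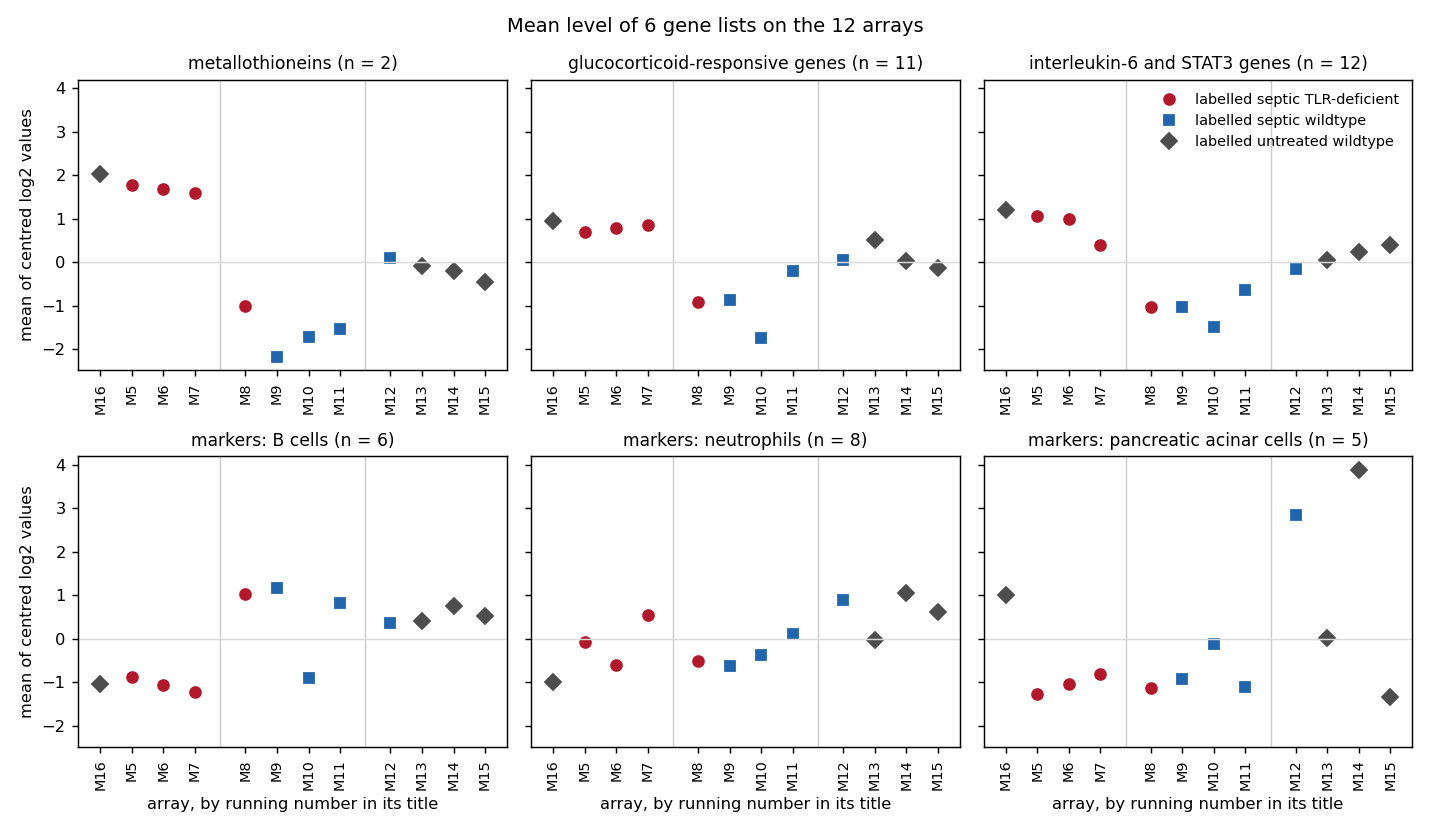
Mean over genes of centred log2 values on each array, with n the number of measured genes. Shown are Mt1 with Mt2, 2 lists of genes tied to inducers, receptors included, and 3 lists of cell markers. The means of the metallothioneins and of both inducer lists are high on M16 and M5 to M7, where that of B cell markers is low. For the interleukin-6 and STAT3 list the mean on M7, 0.41, is close to that on M15, 0.39. Acinar markers are high on M12 and M14.

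Markers of cell types varied over the same arrays. The 6 measured of 7 B cell markers averaged 7.95 to 8.30 on M16 with M5 to M7, where the metallothioneins were high, 9.53 to 9.93 on M12 to M15 and 8.27 to 10.34 on M8 to M11, the lowest of the last being M10. By label they averaged 7.95 to 10.21 in septic TLR-deficient, 8.27 to 10.34 in septic wildtype and 8.13 to 9.93 in untreated wildtype. The 7 red pulp macrophage markers averaged 8.48 to 9.03 on M16 with M5 to M7 and 9.08 to 9.51 on M12 to M15. On M8 to M11 they averaged 9.71 on M9, 9.95 on M11 and 8.33 on M10, and M8 was the highest of all arrays. These means joined markers of opposite direction. Slc40a1, Cd163 and Vcam1 were lower on every array of M16 with M5 to M7 than on M12 to M15. Spic and Adgre1 were higher there, and Hmox1 and Csf1r overlapped. The 4 measured of 6 T cell markers averaged 7.34 to 7.50, 7.70 to 8.68 and 7.26 to 8.61. Their part in the metallothionein values was not tested, and in whole spleen fewer cells of a type and less RNA per cell cannot be told apart.

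Neutrophil markers, 8 of 8 measured, averaged 5.76 to 7.30 on M16 with M5 to M7 and 6.73 to 7.81 on M12 to M15. On M8 to M11 they averaged 6.13 to 6.86, so the means of these runs overlapped. These means joined markers of unlike order. Ly6g, Mmp8, Retnlg and Csf3r were higher on every array of M12 to M15 than on any array of the other runs. Camp, Ngp, Ltf and Mpo overlapped between the runs. Erythroid markers, 6 of 8 measured, averaged 6.97 to 8.69, 7.77 to 8.24 and 7.03 to 8.52, in the run order given for neutrophils. Adipocyte and mesothelial markers, 5 of 6 measured, averaged 4.58 to 5.13, 4.45 to 4.64 and 4.65 to 5.63. Pancreatic acinar markers, 5 of 6 measured, reached means of 8.81 on M12 and 9.86 on M14 and lay at 4.63 on M15. They averaged 4.70 to 6.97 on M16 with M5 to M7 and 4.83 to 5.86 on M8 to M11. On M12, M14 and M15 Mt1 stood at 9.95, 9.94 and 9.67 and Mt2 at 10.34, 9.72 and 9.52. The part of acinar tissue in these values was not tested.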

How the data were processed

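Total RNA from mouse spleen was measured on Affymetrix arrays. The authors deposited log2 expression values per probe set, made by RMA in Affymetrix Expression Console, per the submitters' processing notes. RMA corrects background, makes arrays alike and summarises probes. Versions are not given in the sources used here. All 12 columns were used. Of 35557 probe sets 21789 carried 1 symbol, 1621 several and 12147 none. The probe set with the highest mean represented each of 19938 genes, without a filter on dim ones. RefSeq identifiers (GRCm38.p6) matched 21698 probe sets.

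Groups were compared with limma 3.58.1 (R 4.3.3): a mean for each group, variances moderated over genes and estimated from all 12 arrays, two-sided p-values, Benjamini-Hochberg adjustment over all genes and a threshold of 0.05. The fit was tested on simulated data with independent noise, no displaced arrays and a spread per gene of at most that of the median gene. The simulation therefore does not show what the fit can recover for genes as variable as Mt1 and Mt2. The number of arrays limits precision, and the p-values rest on the spread between replicates as labelled. Cross-hybridisation between Mt1 and Mt2, which are similar in sequence, was not tested. Figures used matplotlib 3.10.9.

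Members and lists were chosen with earlier results of these data known. Named were all members, at most 3 genes per list with the largest range over the arrays, and the 5 profiles nearest to Mt1 and to Mt2. Other genes named were chosen after their values were seen. Same-numbered replicates deviated from their label means with correlations of -0.54 to 0.14. These deviations include the arrays that did not fall as labelled, so they cannot decide whether the numbers pair arrays. The main fit used no pairing. Alternatives were a further quantile normalization, centring on array medians, a filter at percentile 25, averaged probe sets, only the groups compared, array weights, trended and robust variances, the replicate number as a block, each array left out, and, added later, replicates 1 to 3 only and the lists without M10.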

Additional observations from a re-analysis of the deposited data

Results flagged for a closer look

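The 8 members in 3 labelled groups gave 24 groups of 4 values. In 5 of these, 1 array stood further from its group than Dixon's 95% critical value allows. Independent normal values would give that in about 1 of 20 groups. The 24 groups share 12 arrays, however, and several of these did not fall as labelled. The share over all genes was not computed, so the count is not read as particular to the members. The array labelled septic TLR-deficient replicate 4 (M8) had Mt1 at 8.82 where the other 3 lay between 11.35 and 11.48. The same array had Mt2 at 9.23 against 11.92 to 12.25. The array labelled untreated wildtype replicate 4 (M16) had Mt1 at 11.78 against 9.67 to 9.94, and Slc39a10 at 8.56 against 7.61 to 7.77. The array labelled septic wildtype replicate 2 (M10), whose values differ in spread from all others, had Slc39a10 at 4.96 against 7.42 to 7.69. Mt2 on M16, at 12.37 against 9.52 to 10.11, was just inside the critical value, with a ratio of 0.793.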

How the results depend on the processing

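Among 20 alternatives, the 12 that leave out an array included, no member passed in any comparison in limma, and 1 gene passed in 1 of them, septic against untreated wildtype with array weights. The replicate block likewise gave 0 calls. Every label holds the same replicate numbers, so this block cannot change a difference (2.15 for Mt1 between the septic labels). The unchanged differences therefore say nothing about stability. With replicates 1 to 3 only, 9 genes passed for septic against untreated wildtype and 141 between the septic labels. For septic TLR-deficient against untreated wildtype 33 passed. Of these 1, 2 and 2 were members. This choice was added once the data had been seen, so its calls cannot serve as support for a difference. Signs turned for some differences, not all of them near 0. Mtf1 had 0.17 for septic against untreated wildtype with a further quantile normalization, and between the septic labels 0.0661 with arrays centred on their medians, 0.0688 with replicates 1 to 3 only and -0.1218 to 0.0139 with 1 array left out. Between the septic labels Slc30a1 had 0.0674 with centred arrays, 0.0444 with replicates 1 to 3 only and -0.3707 to 0.1056 with 1 array left out. Also between the septic labels, Slc39a10 had 0.62 (SE 0.56) as reported but -0.0033 with array weights. With 1 array left out it lay between -0.0358 (without M10) and 0.9338 (without M7). Slc39a14 had -0.1523 to 0.6712 for septic TLR-deficient against untreated wildtype with 1 array left out. The causes of these changes were not tested.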
